A study of Mus musculus with 10 samples.

Results

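m6A peaks called in 3T3-L1 cells given rhein during mitotic clonal expansion (MCE) were compared with the peaks of solvent-treated cells of the same stage. A peak is a stretch of exons in which RNA pulled down with an antibody against N6-methyladenosine exceeded the RNA it came from. The list labelled Rhein MCE held 3069 peaks and the list labelled DMSO MCE held 5128, together 8197 of the 17036 peaks in the 5 lists of the series. Peaks were called shared when they lay on the same chromosome and strand and their spans overlapped by at least 1 base. By this rule 1644 peaks of Rhein MCE had a partner and 1425 did not, the rhein-only class. In DMSO MCE 1658 peaks had a partner and 3470 did not, the DMSO-only class.

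m6A is the most common internal mark of messenger RNA. A complex built on METTL3 and METTL14 writes it, FTO and ALKBH5 remove it, and reader proteins such as the YTHDF family bind it and alter splicing, decay or translation of the RNA. The mark is known for its density near stop codons and in long internal exons and for its GGAC core. 3T3-L1 is an established mouse preadipocyte line. After hormonal induction its growth-arrested cells divide again, the clonal expansion, before the transcription factors C/EBPβ and C/EBPδ hand over to the regulators that fill the cells with fat. Rhein is a plant anthraquinone described as an inhibitor of FTO.

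Both conditions were 3T3-L1 cells at the clonal expansion stage, and they differed by label only in the treatment, rhein or its solvent dimethyl sulfoxide (DMSO). Rhein was given at 20 µM from day 0 to day 3. Each condition had 1 immunoprecipitated library (IP) and 1 input library, 4 libraries in all. There was no replicate, so no difference could be set against the spread between cultures, and no test was made. Brackets after a share hold its 95% Wilson interval, which reflects the number of peaks counted and nothing else. Read numbers are not part of the lists, which leaves the sequencing depth unknown, and a site missing from a list was not called there, which does not show that it was unmethylated. More RNA of a gene and more of the mark per RNA cannot be told apart in a list of peaks.

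The deposited list labelled Rhein Diff had 3067 spans identical to those of Rhein MCE, so it is no second test, and whether the shared content came from the clonal expansion or the later stage cannot be told apart. The single value per peak is a score of the caller that ranks peaks within a list and is taken here to be an adjusted p-value on a minus log2 scale. Scores move with depth as well as with enrichment, and ranks are therefore given beside them. None of the 10 markers of other cell types had a peak in either list, while 7 of 13 preadipocyte and fibroblast markers did, 2 in both lists, 1 in rhein alone and 4 in DMSO alone. Peaks do not measure expression, so the labelled cell type was not checked further.

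The sequences of several high-scoring peaks that lie whole in the coding sequence (CDS) of 1 exon are shown as examples of the classes, since the results on single genes turn on them. They were read from GENCODE M21 transcripts on GRCm38, 5′ to 3′, in lower case with GGAC in capitals. The first 3 lie in the single exon of Cebpb on the plus strand, at chr2:167689290-167689564, chr2:167689565-167689664 and chr2:167689840-167689889. Jun (chr4:95050734-95050958, minus strand) and Eid1 (chr2:125673295-125673394, plus strand) are single-exon transcripts as well. The Mdm2 peak is in exon 12 of 12 (chr10:117690325-117690399, minus strand) and the Zfp36l2 peak in exon 2 of 2 (chr17:84186231-84186280, minus strand). The Ncl peak is in exon 3 of 14 (chr1:86357191-86357265, minus strand) and the Eif3a peak in exon 17 of 22 (chr19:60768767-60768866, minus strand).
Cebpb DMSO-only: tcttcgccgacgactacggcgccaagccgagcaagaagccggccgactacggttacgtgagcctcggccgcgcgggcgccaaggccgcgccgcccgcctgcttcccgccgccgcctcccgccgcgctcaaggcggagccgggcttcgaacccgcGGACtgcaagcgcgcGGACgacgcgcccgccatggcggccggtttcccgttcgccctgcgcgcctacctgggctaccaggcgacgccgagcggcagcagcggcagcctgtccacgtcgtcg
Cebpb rhein-only: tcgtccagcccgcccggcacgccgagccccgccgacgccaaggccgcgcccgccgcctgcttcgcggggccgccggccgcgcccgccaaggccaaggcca
Cebpb shared: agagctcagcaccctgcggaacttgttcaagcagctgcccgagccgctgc
Jun rhein-only: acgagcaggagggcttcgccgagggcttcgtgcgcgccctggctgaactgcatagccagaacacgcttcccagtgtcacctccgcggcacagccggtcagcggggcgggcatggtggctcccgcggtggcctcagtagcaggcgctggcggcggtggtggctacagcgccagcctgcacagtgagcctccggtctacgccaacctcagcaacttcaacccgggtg
Mdm2 rhein-only: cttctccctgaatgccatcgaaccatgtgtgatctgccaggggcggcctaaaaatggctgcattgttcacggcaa
Eid1 rhein-only: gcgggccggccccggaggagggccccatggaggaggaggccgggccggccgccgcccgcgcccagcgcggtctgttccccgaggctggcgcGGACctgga
Zfp36l2 shared: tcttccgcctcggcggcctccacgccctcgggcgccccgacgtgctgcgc
Ncl DMSO-only: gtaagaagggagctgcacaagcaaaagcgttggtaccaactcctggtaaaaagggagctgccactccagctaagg
Eif3a DMSO-only: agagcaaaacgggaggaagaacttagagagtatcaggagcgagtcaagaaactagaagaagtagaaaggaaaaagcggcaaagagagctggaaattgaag
The Cebpb DMSO-only stretch abuts the rhein-only stretch, and of this pair only the DMSO-only stretch held GGAC, at 2 places. Of the other sequences shown, the Eid1 peak held GGAC at 1 place and the rest held none. The G and C content was 84% in the rhein-only, 64% in the shared and 75.6% in the DMSO-only Cebpb peak. It was 68.9% in Jun, 83% in Eid1, 80% in Zfp36l2 and 53.3% in Mdm2. The DMSO-only peaks of Ncl and Eif3a had 52% and 43%. These examples do not stand for their classes, as the median over all peaks in protein-coding genes was 49.5% in rhein-only and 52% in DMSO-only peaks.

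Sharing depended on the score. Of the Rhein MCE peaks 53.6% (51.8 to 55.3) had a partner, and of the DMSO MCE peaks 32.3% (31.1 to 33.6). The background shares without a partner were therefore 46.4% for Rhein MCE and 67.7% for DMSO MCE. In Rhein MCE the share with a partner fell from 70.3% in the 10% of peaks with the highest scores to 45.6% in the 10% with the lowest. In DMSO MCE it fell from 86.5% to 4.87%. Past an adjusted p-value of 1e-10, a score above 33.2, 93 of 96 DMSO peaks had a partner of any score in the rhein list, whereas 111 of 151 rhein peaks had one in the DMSO list. These shares were 96.9% (91.2 to 98.9) and 73.5% (66 to 79.9), and their intervals did not overlap. The highest DMSO peaks were thus nearly all in the rhein list, and 40 of the highest rhein peaks were not in the longer DMSO list.

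**Figure D1:**
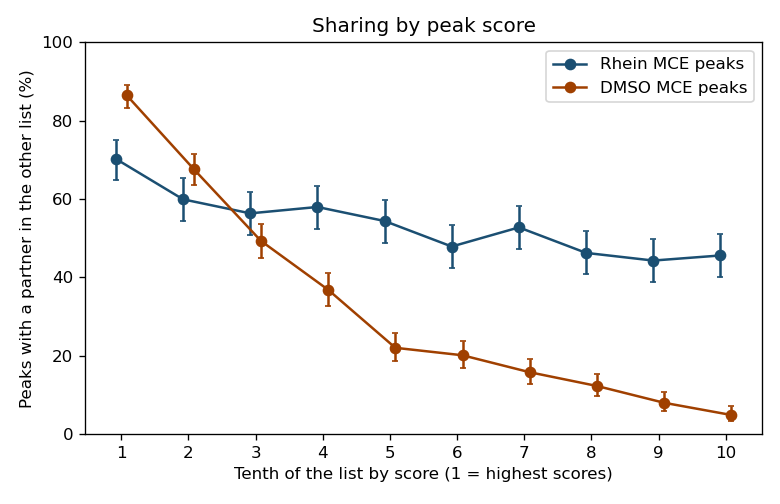
Share of peaks with a partner in the other list (%, vertical axis) in 10 equal parts of a list ordered by score (horizontal axis, 1 is the highest), with 95% Wilson intervals as bars. DMSO MCE starts higher, at 86.5%, and ends at 4.87%, while Rhein MCE runs from 70.3% to 45.6%.

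Shared peaks differed in order and in extent. Among 1408 pairs in which each peak had the other as its only partner, the exonic length was the same in 345, greater in rhein in 414 and greater in DMSO in 649. The median length was 175 bases in rhein and 200 in DMSO. The score was higher in DMSO in 846 pairs and in rhein in 562. Of the 58 rhein peaks of these pairs that ranked in the top 100 of their list, 30 had a DMSO partner in its top 100, and these 30 were 38% of the 79 DMSO peaks of that rank. The remaining top 100 peaks of these pairs stood below the top 100 of the other list. Peaks with no partner or with several are not in this count.

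Cebpb gave the highest score of the rhein list. Its product C/EBPβ is induced early in adipogenesis and is required for clonal expansion. A stretch of 50 bases in its CDS had a score of 488, rank 1 in Rhein MCE, and its DMSO partner had 38.8, rank 76. Toward the 3′ end the order turned, as the DMSO peak at chr2:167689965-167690339 had a score of 85.7, rank 8, and its rhein partner 6.80, rank 2225. The rhein-only CDS peak had a score of 129, rank 12, and the abutting DMSO-only peak 18.1, rank 262. Rhein MCE therefore had its highest scores in the 5′ part and the CDS of Cebpb, and DMSO MCE its highest in the 3′ part. The DMSO CDS peak of 38.8 was above 33.2 as well.

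Jun, a subunit of the AP-1 transcription factor, had a like contrast between its CDS and 3′ UTR. Its rhein-only CDS peak had a score of 145, rank 7 and the highest of the class. The list spans at chr4:95049709-95050333, in the 3′ UTR, were identical, with a score of 6.96 (rank 2120) in rhein and 73.3 (rank 20) in DMSO. Cebpd, which encodes the partner C/EBPδ, had 3 shared peaks in each list. Its rhein peak in the CDS had a score of 146, rank 6, over a DMSO partner of 34.4, rank 91, and its most 3′ peak had 8.27, rank 1416, under 51.1, rank 44, in DMSO. Pdgfra, a receptor for platelet-derived growth factor that marks preadipocytes, had a 3′ UTR peak of rank 21 in DMSO and rank 885 in rhein, and the nuclear receptor gene Nr2f2 one of ranks 23 and 889.

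The other shared peaks of highest score stood high in both lists except that of Zfp36l2. Gas1, a growth arrest gene of the hedgehog pathway, had 5 peaks in each list, all shared. Its highest rhein score was 279 (rank 2), over a highest DMSO partner of 36.0 (rank 85), while its highest DMSO score at any peak was 52.8. H1f0, a linker histone of cells that leave the cycle, had an identical span in both lists with a score of 195 (rank 3) in rhein and 38.4 (rank 77) in DMSO. The CDS peak of Zfp36l2, an RNA-binding protein that promotes decay of AU-rich messages, had 190 (rank 4) over 8.49 (rank 1464), and was the pair of most unequal rank among the 10 highest rhein peaks in coding genes. Igfbp4, a carrier of insulin-like growth factors, had 161 (rank 5) over 43.1 (rank 63). Pde10a, a phosphodiesterase gene, had 2 peaks in each list, of ranks 8 and 10 in rhein and 5 and 9 in DMSO. Junb, another AP-1 subunit, had ranks 11 and 6, and Plec, which encodes the cytoskeletal linker plectin, ranks 29 and 4. A peak of the chaperone gene Hspa5 held ranks 28 and 16.

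**Figure D2:**
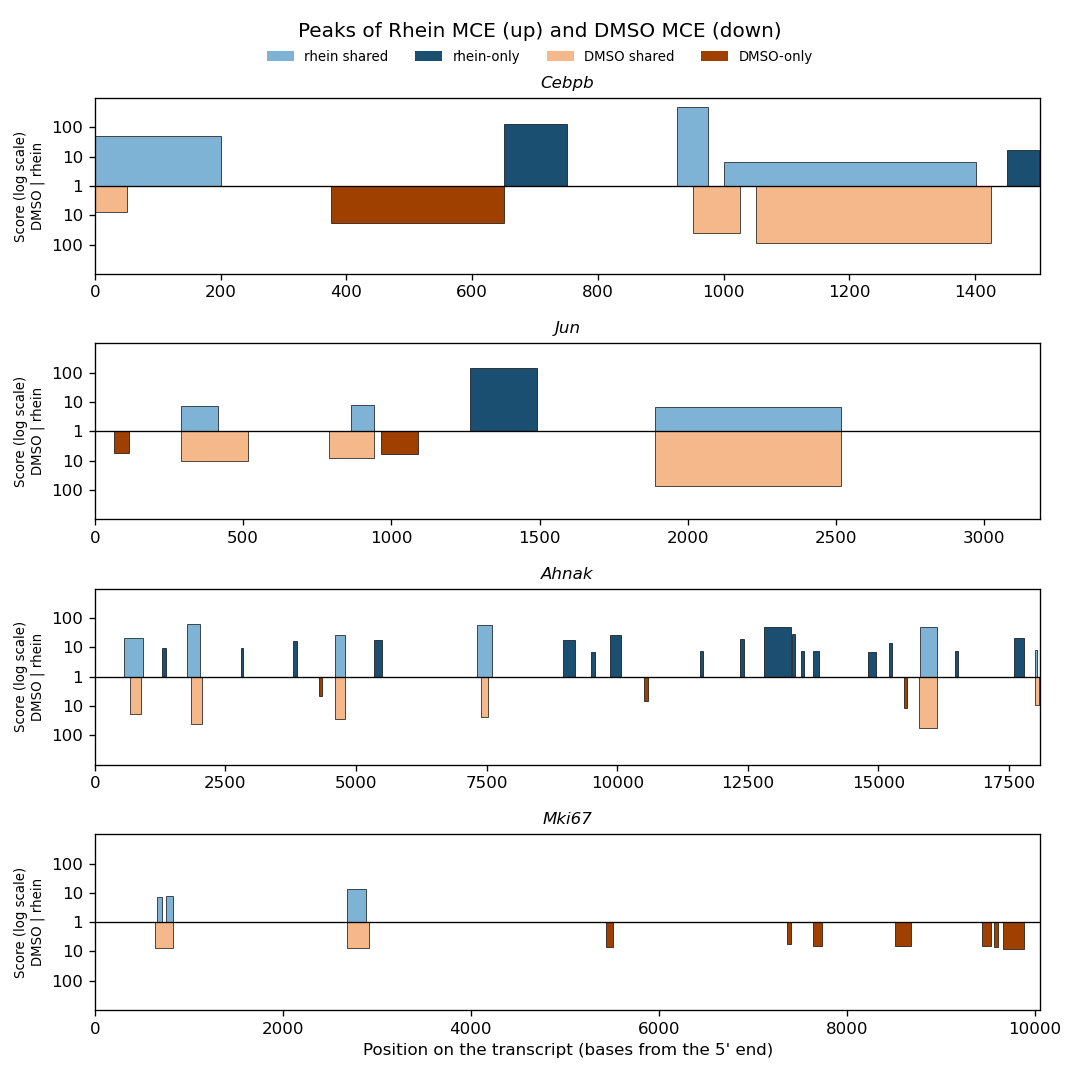
Peaks along the transcripts of Cebpb, Jun, Ahnak and Mki67 (horizontal axis, bases from the 5′ end), with the score on a log scale (vertical axis, Rhein MCE upward and DMSO MCE downward) and colours for the 4 classes. The highest rhein score of Cebpb, 488, lies in the CDS and the highest DMSO score, 85.7, 3′ of it. Ahnak has 23 rhein and 9 DMSO peaks, and Mki67 3 and 9.

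The rhein-only peaks of highest score in protein-coding genes lay in Jun, Cebpb, Col6a2, Mdm2, Mtrex, Cenpb, Eid1, Tmem189, Nedd4 and Usp47. Col6a2, a chain of collagen VI, had a CDS peak with a score of 100.2, rank 16. Mdm2, the ubiquitin ligase that holds p53 in check, had a CDS peak of 79.0, and its neighbour 25 bases downstream was shared, with 49.97 in rhein and 75.5 in DMSO. Mtrex encodes a helicase of the nuclear exosome (75.5) and Cenpb a protein of centromeric DNA (70.7). Eid1 encodes an inhibitor of differentiation that binds the retinoblastoma protein (70.2). A rhein peak of Shc4 on the minus strand, which had a DMSO partner, lay over nearly the same bases as the Eid1 peak. Nedd4, a ubiquitin ligase (61.0), and Usp47, a deubiquitinase (57.7), had theirs in the 3′ UTR. The Tmem189 peak (63.2) lay on the minus strand over nearly the same bases as the rhein-only Cebpb peak. Of all rhein-only peaks, 60 of 1425 (4.21%) had another rhein peak over the same bases of the opposite strand, and 117 of 3470 DMSO-only peaks (3.37%) had one in the DMSO list. Since the strandedness of the libraries was not established, such peaks may belong to the partner gene.

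The DMSO-only peaks had lower scores, and 3 of 3470 exceeded 33.2, against 40 of 1425 rhein-only peaks. Over the whole lists 4.92% of Rhein MCE and 1.87% of DMSO MCE peaks exceeded it. A contrast in raw score between the 2 unshared classes is therefore not separate from the one between the lists. The median score of the DMSO-only peaks was 6.76, below the 7.65 of the rhein-only and the 9.44 of the shared DMSO peaks. The highest in protein-coding genes lay in Ptn, Cd248, Slc5a3, Hist1h1d, Hnrnpm, Vcan, Adamts1, Gm20721, Sox4 and Sned1. Ptn, a heparin-binding growth factor, had a 3′ UTR peak of score 51.1, rank 43, and 7 DMSO against 2 rhein peaks in all. Cd248, the stromal surface protein endosialin, had 45.7, rank 50, yet 3 of its 4 DMSO peaks were shared. A rhein-only peak of Cd248 with a score of 28.5, rank 191, lay close upstream of this DMSO-only peak. Slc5a3, an inositol transporter, had 30.7 and the linker histone gene Hist1h1d 29.4, the latter with no rhein peak. Hnrnpm, a splicing regulator, had 27.7, Vcan, the matrix proteoglycan versican, 24.7, and Adamts1, a protease that cleaves it, 23.6. Sox4 is a transcription factor gene (23.5) and Sned1 a matrix protein gene (22.6). The Gm20721 peak lay on the minus strand within the span of a plus-strand DMSO peak of Gnas (55.8) that was shared, so the caution on strands applies to it.

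Several genes carried many peaks of 1 class. Ahnak, a giant scaffold protein of the cell cortex, had 23 rhein and 9 DMSO peaks, of which 17 were rhein-only and 3 DMSO-only, and 6 in each list were shared. Col5a3, a chain of collagen V, had 6 rhein peaks and none in DMSO, with scores of 4.73 to 15.1. Col6a2 had 5 rhein-only peaks with scores of 14.6 to 100.2 and 1 DMSO-only peak of 10.8. B4galt5, a galactosyltransferase, had 6 against 1, Srxn1, which repairs oxidised peroxiredoxins, 7 against 2, and Myh9, the heavy chain of nonmuscle myosin, 6 against 2 with none shared. Among genes with many shared peaks, Gas7, a growth arrest gene, had 10 rhein and 8 DMSO peaks, and Akap11, an anchor of protein kinase A, 8 and 12.

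On the DMSO side, Mki67, which encodes the proliferation antigen Ki-67, had 9 peaks against 3 in rhein. Its 3 rhein peaks all had partners, at 2 DMSO peaks, and the 7 DMSO-only peaks had scores of 5.51 to 8.26. Atrx, a chromatin remodeller, had 8 against 2 and Ube3a, a ubiquitin ligase, 6 against none. S1pr3, a receptor for sphingosine-1-phosphate, had 8 against 2, and the immediate-early gene Ier5 7 against 1. Has2, which makes hyaluronan, and the helicase gene Ddx24 each had 7 DMSO peaks against 2 in rhein. Golgb1, a tethering protein of the Golgi, had 6 against 1. The scores of the DMSO-only peaks in these genes ended at 8.97, in a range of scores in which under 50% of the DMSO list had a partner.

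Positions were compared over peaks in coding transcripts. Of the rhein-only peaks 6.18% (4.94 to 7.71) had their midpoint in the 5′ UTR, 54.4% (51.6 to 57.3) in the CDS and 39.4% (36.6 to 42.2) in the 3′ UTR. The DMSO-only peaks gave 6.80%, 55.3% and 37.9%, and all 3 intervals overlapped those of rhein-only. Of the shared rhein peaks, 8.70% lay in the 5′ UTR, 49.9% in the CDS and 41.4% in the 3′ UTR. A distance of at most 200 bases to the stop codon was found for 20.6% (18.4 to 23.0) of rhein-only and 23.7% (22.2 to 25.2) of DMSO-only peaks, with overlapping intervals, beside 24.3% of shared rhein and 25.9% of shared DMSO peaks. That window took up 11.5% to 12.6% of the transcripts of the 4 classes, so each class was denser near the stop codon than its transcripts are long there.

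The peaks of highest score differed in position between the lists. This contrast was chosen after the values were seen. Of the 122 Rhein MCE peaks in coding transcripts with a score above 33.2, 26.2% (19.2 to 34.7) lay in the 5′ UTR and 15.6% (10.2 to 23.0) in the 3′ UTR. In DMSO MCE 4.69% (1.61 to 12.9) of 64 such peaks lay in the 5′ UTR and 31.2% (21.2 to 43.4) in the 3′ UTR. DMSO Pre and DMSO Diff, the lists of solvent-treated cells before induction and during differentiation, had 4.26% of 47 and 2.70% of 74 in the 5′ UTR, with intervals that ended at 14.2 and 9.33. The 5′ UTR interval of Rhein MCE overlapped none of these 3. Among peaks at or below this score the 5′ UTR share was 6.63% in Rhein MCE and 7.36% in DMSO MCE. The difference thus lay in the high-scoring peaks and not in the lists at large. Parts were set by the midpoint, and peaks above 33.2 in protein-coding genes had a median of 200 bases in Rhein MCE and 325 in DMSO MCE. The DMSO peak of Junb, 900 bases and counted in the CDS, covered the rhein peak of Junb counted in the 5′ UTR. The part that peak length has in the difference was not tested.

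The 32 high-scoring rhein peaks in 5′ UTRs came from 31 genes. A DMSO partner existed for 28 of them, but in 4 only did the partner also pass a score of 33.2. They included Gas1, H1f0, Gnas, a stimulatory G protein subunit, and Junb. Fgfr1, a fibroblast growth factor receptor, had 53.4 over 21.2 in DMSO, and the first 200 bases of Cebpb 50.8 over 7.95. The matrix gene Fbln2 had 47.4 over 7.45, the AP-1 gene Fosl2 41.6 over 12.2, and Fth1, the ferritin heavy chain, 53.4 over 11.9. The Shc4 peak, 34.0 over 7.83, lay opposite the rhein-only Eid1 peak and may belong to that gene. The 4 without partner lay in Klf5, Scara5, Foxc1 and Pfkl. Klf5 is a zinc finger factor of early adipogenesis, and the 5′ end of its transcript (chr14:99298691-99298815) gave a score of 50.8. Scara5 encodes a ferritin receptor, Foxc1 a forkhead factor of mesenchyme, and Pfkl the liver form of phosphofructokinase.

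These high-scoring stretches were rich in G and C. In protein-coding genes the median G and C content of peaks above 33.2 was 68.5% in Rhein MCE, 56.9% in DMSO MCE (67 peaks), 41.2% in DMSO Pre (49 peaks) and 46% in DMSO Diff (75 peaks). Within Rhein MCE it was 74% for the 32 5′ UTR peaks and 67.5% for the 71 CDS peaks, against 65.3% and 54% for the peaks of lower score in those parts. In the 3′ UTR it was 46% for the 19 peaks above 33.2 and 47.1% for those of lower score, so the higher content was not found there. The CDS peaks above 33.2 in DMSO MCE had 61.3%. The part that base composition has in the difference between the lists was not tested.

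**Figure D3:**
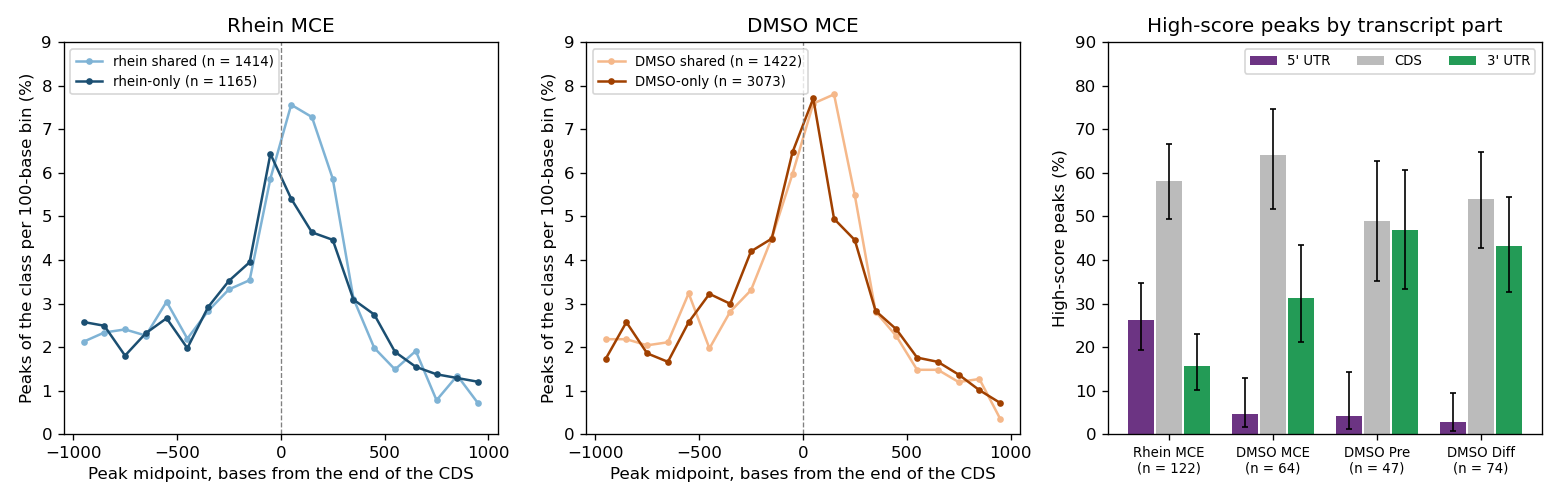
Left and middle, share of peaks per 100-base bin (%) by the distance of their midpoint from the end of the CDS (bases) for the 4 classes. Right, parts of the transcript that held the peaks with a score above 33.2 (%, with 95% Wilson intervals) in 4 lists, where Rhein MCE has 26.2% in the 5′ UTR and the other lists 2.70% to 4.69%.

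GGAC was less frequent in rhein-only peaks. The motif was searched as these 4 letters on the transcript strand, anywhere in the exonic sequence of a peak. It was present in 38.9% (36.4 to 41.5) of 1374 placed rhein-only, 47.3% (45.6 to 49.0) of 3364 DMSO-only, 63.7% (61.3 to 66) of 1604 shared rhein and 64.7% (62.3 to 67.0) of 1612 shared DMSO peaks. Shared peaks were longer, with a median of 175 exonic bases in rhein and 200 in DMSO, while both unshared classes had a median of 100. In windows of 100 bases around the midpoint GGAC occurred in 40.7% (38.0 to 43.4) of rhein-only and 49.6% (47.9 to 51.3) of DMSO-only peaks, and in 58.2% and 57.8% of shared peaks. All windows of 100 bases on the same transcripts outside peaks held it in 31.8% to 32.6%. In these windows the rhein-only share was still below the DMSO-only share, and both were below the shared classes, whose intervals overlapped. The rhein-only class stood nearest to sequence without peaks. With peaks grouped by their own length, the DMSO-only share was not below both shared classes in every group.

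The gap was present where peaks were long enough to hold the motif often. Among peaks of 150 to 200 bases, 56.3% (50.5 to 61.9) of rhein-only peaks and 71.1% (67.7 to 74.2) of DMSO-only peaks had GGAC, where 48.9% and 48.0% of all windows of the same lengths did. For peaks of 50 to 75 bases the shares were 28.2% (24.8 to 31.9) and 25.3% (23.2 to 27.6), with overlapping intervals. In the group starting at 100 bases they were 36.0% and 47.7%, beside 36.2% and 33.7% of all windows. Shared rhein and shared DMSO peaks of that group had 43.5% and 34.5%, both below DMSO-only. At 150 to 200 bases they had 72.5% and 69.3%, on either side of DMSO-only. At 50 to 75 bases they had 33.2% and 28.1%, both above DMSO-only. Among the longest peaks they had 84.2% and 89.3%, above the 83.2% of DMSO-only. Of the 37 placed rhein-only peaks with a score above 33.2, 16 held GGAC, 43.2% (28.7 to 59.1).

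Exon length separated the classes as well, a comparison added after a look at the data. Of rhein-only peaks in internal exons, 30.9% (26.7 to 35.4) of 421 lay in exons over 400 bases, and the median exon was 189 bases long. In DMSO-only peaks the share was 50.9% (47.8 to 54.0) of 1016 and the median 419 bases, and in shared rhein peaks 62.9% (57.8 to 67.6) and 639 bases. Such exons made up 24.4%, 32.1% and 41.3% of the internal-exon sequence of the same transcripts, in this order. The rhein-only share exceeded the share of sequence least. With both lists cut to scores above 33.2 before matching, the order turned, to 7 of 10 peaks unshared in rhein and 4 of 8 unshared in DMSO. Their intervals overlapped. These are not the classes above, since only 3 DMSO-only peaks of the full lists passed 33.2.

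The classes were then looked for at the other stages of solvent-treated cells. Of the rhein-only peaks, 17.6% (15.7 to 19.7) overlapped a DMSO Pre peak and 22.0% (19.9 to 24.2) a DMSO Diff peak, and 30.8% (28.5 to 33.3) at least 1 of them. Of the DMSO-only peaks, 13.9% (12.8 to 15.1) and 13.4% (12.3 to 14.6) did, and 22.2% (20.8 to 23.6) at least 1. Shared rhein peaks reached 65.9% in this count. Both unshared classes were thus found at another stage less often than shared peaks. The order of the unshared classes changed when the lists were cut by length or by score and the classes formed anew. With the DMSO list reduced to the length of the rhein list, rhein-only peaks gave 17.9% for DMSO Pre and 22.0% for DMSO Diff, and DMSO-only peaks 18.7% and 20.7%, with overlapping intervals. With both lists cut to scores above 33.2 before matching, the order turned. It was 28.8% and 39.4% of 104 peaks unshared in rhein against 80% and 82% of 50 unshared in DMSO. Most of these peaks had a partner of lower score in the full lists, where 40 rhein-only and 3 DMSO-only peaks passed 33.2. The turn therefore does not describe the unshared classes of the full lists.

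Of the 10 highest rhein-only peaks in coding genes 6 were in DMSO Pre or DMSO Diff. The Mdm2 peak stood at rank 2 in DMSO Pre and rank 4 in DMSO Diff. Cebpb, Col6a2 and Nedd4 had theirs in DMSO Diff at ranks 35, 20 and 34. The Usp47 peak was in DMSO Pre at rank 1070, and the Tmem189 peak in DMSO Diff at rank 468. The Cebpb and Tmem189 peaks cover nearly the same bases on opposite strands, so they may not be separate cases. The peaks of Jun, Mtrex, Cenpb and Eid1 were in neither. Of the 10 highest DMSO-only peaks 8 were in one of these lists, and the Vcan peak had rank 2 in DMSO Diff while those of Adamts1 and Gm20721 were in neither.

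**Figure D4:**
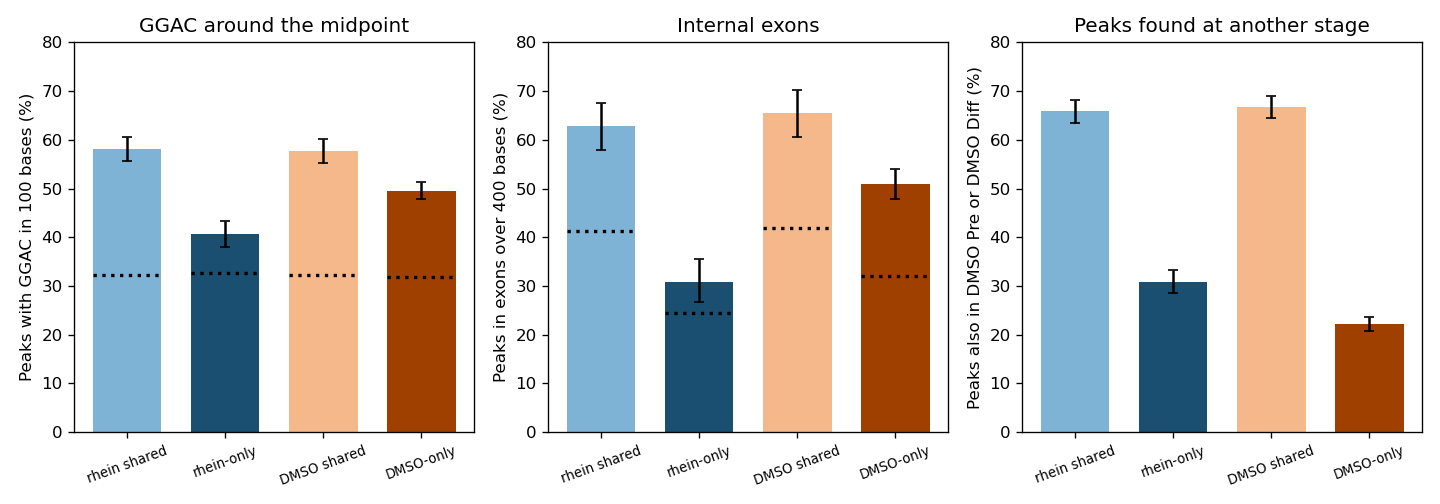
Shares (%) of the 4 classes with 95% Wilson intervals as bars. Left, GGAC in 100 bases around the midpoint, with the share of all windows outside peaks dotted. Middle, internal-exon peaks that lie in exons over 400 bases, with the share of internal-exon sequence dotted. Right, peaks also in DMSO Pre or DMSO Diff. The rhein-only class stands lowest in the first 2 panels, at 40.7% and 30.9%, and DMSO-only in the last, at 22.2%. The order in the last panel changes when the lists are cut by length or score and the classes formed anew.

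Many unshared peaks lay in genes that had peaks in the other list. This held for 59.2% (56.6 to 61.8) of the placed rhein-only peaks and 38.9% (37.2 to 40.5) of the DMSO-only peaks. A DMSO peak lay within 100 bases on the same transcript for 14.8% of the rhein-only peaks, and within 25 bases for 7.42%, as in Cebpb. For the DMSO-only peaks a rhein peak did so in 7.67% and 3.54%. The annotation type snRNA covers small RNAs of the spliceosome with many near-identical copies. It held 59 rhein-only (4.29% of those placed), 75 shared rhein (4.68%), 75 shared DMSO (4.65%) and 43 DMSO-only peaks (1.28%). Ranks 1, 2 and 3 of DMSO MCE were of this type, and the first such peak of Rhein MCE had rank 17. Reads of such copies cannot be assigned with certainty, and these loci are not described singly.

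By genes, 1851 had a peak in Rhein MCE and 2965 in DMSO MCE. Of the 3444 genes with a peak in either list, 39.8% had one in both, 13.9% in Rhein MCE alone and 46.3% in DMSO MCE alone. These shares are the background for the gene lists. Of the 1372 genes with peaks in both, 237 had no pair of peaks that overlapped. Most genes of 1 list rested on a single peak, 85.4% in rhein and 77.5% in DMSO.

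Genes of adipogenesis and early response were mostly in both lists. Of 16 immediate-early and AP-1 genes with a peak, 12 (75%) had peaks in both and none in rhein alone. Egr1, a zinc finger factor, had 2 rhein and 6 DMSO peaks, and Fosl2 8 and 5. The 4 with DMSO peaks alone were the matricellular gene Ccn1, Ier3, and the RNA decay factors Zfp36, with 3 peaks up to a score of 14.8, and Zfp36l1, with 2 up to 12.7. Of 18 adipogenic transcription factors and cofactors 10 were in both, 1 in rhein alone (Rxra, the partner of PPARγ) and 7 in DMSO alone, among them the glucocorticoid receptor gene Nr3c1 and the acetyltransferase gene Ep300. All 3 Kruppel-like factor genes with a peak, Klf5, Klf9 and Klf13, were in both.

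Among 12 genes of lipid metabolism 5 were in both. A further 3 had rhein peaks alone, among them the lipase gene Lipe and the desaturase gene Scd1, with scores up to 8.24 and 7.52. Another 4 had DMSO peaks alone, among them Acaca, Elovl6 and Scd2, which encode enzymes of fatty acid synthesis and desaturation, with scores up to 7.59. Hence no direction was common to this list.

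Of 23 cell cycle genes with a peak, 7 were in both, 4 in rhein alone and 12 in DMSO alone, or 52.2% against the background of 46.3%. Those in DMSO alone included E2f1, a driver of S phase entry (12.02), Smc4, a condensin subunit (10.7), Ccnd1, which encodes cyclin D1 (4.37), and Aurkb, a mitotic kinase (5.23). Those in rhein alone were Cdk1, the mitotic cyclin-dependent kinase (8.26), Ccnd2, which encodes cyclin D2 (9.40), and the spindle genes Tpx2 (10.2) and Numa1 (6.22). Cdkn1b, which encodes the cell cycle inhibitor p27, had a peak of 63.9 in rhein and 14.4 in DMSO, and Top2a, which untangles replicated DNA, 9 rhein and 10 DMSO peaks. Of 10 DNA replication genes 4 were in both, 2 in rhein alone (Lig1 and Rrm1) and 4 in DMSO alone (Mcm4, Mcm5, Pola1 and Rfc1). In the p53 list of 9 genes, 2 were in both, 1 in rhein alone and 6 in DMSO alone.

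Most extracellular matrix genes with a peak had one in the rhein list. Of its 29 genes with a peak, 21 (72.4%) were in both, 5 (17.2%) in rhein alone and 3 (10.3%) in DMSO alone, beside backgrounds of 39.8%, 13.9% and 46.3%. It had 83 rhein and 73 DMSO peaks, although the DMSO list was the longer. The 5 were Col5a3, Col6a3, Col16a1, the fibronectin gene Fn1 and the matrix protease gene Mmp14, and the 3 were Col3a1, Loxl3 and Thbs1. Nid1, which links laminin to collagen IV, had 10 rhein and 12 DMSO peaks, and Timp2, a protease inhibitor, a highest score of 27.1 in rhein and 5.50 in DMSO. Of 15 genes of chondroitin and heparan sulfate synthesis 10 were in both, none in rhein alone and 5 in DMSO alone. The chondroitin polymerising factor gene Chpf had 3 rhein and 1 DMSO peaks, of which 2 rhein peaks were unshared. Of 32 genes of the cytoskeleton and adhesion 20 were in both, 3 in rhein alone and 9 in DMSO alone.

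The cytoplasmic ribosomal protein genes held a larger share of genes with rhein peaks alone than any other list. Of 31 with a peak, 9 (29.0%) were in both, 12 (38.7%) in rhein alone and 10 (32.3%) in DMSO alone. Of their 27 rhein peaks 88.9% had no partner, against 46.4% over all rhein peaks, and 71.4% of 21 DMSO peaks against 67.7%. Rpl22 had the highest score of the 12, 22.0, and the other scores ran from 5.89 to 11.2. These genes have many processed pseudogenes, whose reads the alignment could exchange. Among 36 genes of splicing and RNA binding, 19 were in both, 8 (22.2%) in rhein alone and 9 in DMSO alone. The 8 included the SR protein genes Srsf1, Srsf3 and Srsf6, which guide splice site choice, and the kinase gene Clk1 that phosphorylates them.

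The numbered zinc finger genes lay on the DMSO side. Of 66 with a peak, 19 were in both, 3 in rhein alone and 44 (66.7%) in DMSO alone, with scores of 5.09 to 14.8 at their highest peaks. Of their 111 DMSO peaks 76.6% were unshared, where 67.7% of all DMSO peaks were. The chromatin regulators gave 24 of 43 in both, 2 in rhein alone and 17 in DMSO alone, the last with the DNA methyltransferase gene Dnmt1 and the remodeller gene Smarca4, each with 4 DMSO peaks. The solute carriers gave 15 of 37 in both, 3 in rhein alone and 19 in DMSO alone. Of 9 receptor tyrosine kinase genes 4 were in both and 5 in DMSO alone, among them Met with 3 peaks.

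Genes of m6A itself were on both sides. Of 16 writers, erasers and readers with a peak 9 were in both, 1 in rhein alone and 6 in DMSO alone. The eraser gene Alkbh5 had 2 rhein peaks, up to 15.7, and 4 DMSO peaks, up to 9.65. The eraser gene Fto had no rhein peak and 1 in DMSO (chr8:91409559-91409733, score 6.83, rank 3074 of 5128). Igf2bp3, a reader, had 2 rhein peaks alone, up to 14.0, while its paralog Igf2bp2 had 3 DMSO peaks alone, up to 9.37. The writer subunit Virma and the reader Ythdc1 had 3 and 2 DMSO peaks alone. Ythdf1, Ythdf2, Ythdf3, Zc3h13, Rbm15 and Rbm15b, further readers and writer subunits, had peaks in both.

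The signalling lists were mixed. JAK-STAT gave 6 of 13 in both, 1 in rhein alone (the phosphatase gene Ptpn11) and 6 in DMSO alone, and Il6st, the shared receptor chain of the interleukin-6 family, had 6 rhein and 10 DMSO peaks. Insulin, PI3K and mTOR gave 9 of 17 in both, 2 in rhein alone, Gsk3b (18.6) and Mtor (7.33), and 6 in DMSO alone, among them the insulin receptor gene Insr with 2 peaks up to 6.05. Irs2, which docks to that receptor, had 9 rhein and 12 DMSO peaks with a highest score of 72.8 and 15.0. Wnt gave 7 of 11 in both and 4 in DMSO alone, and the TGF-beta, BMP, Notch, Hippo and hedgehog list 13 of 23 in both, 2 in rhein alone and 8 in DMSO alone. Autophagy gave 2 of 8 in both, 2 in rhein alone, Gabarap (24.1) and Gabarapl1 (32.0), and 4 in DMSO alone. Both code for ubiquitin-like proteins of the autophagosome membrane, and Map1lc3b of the same family had a DMSO peak alone (5.10). The 6 genes discussed by the study that had a peak, a list not chosen independently of these samples, gave 4 in both and 2 in DMSO alone, Fto and Jak2.

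**Figure D5:**
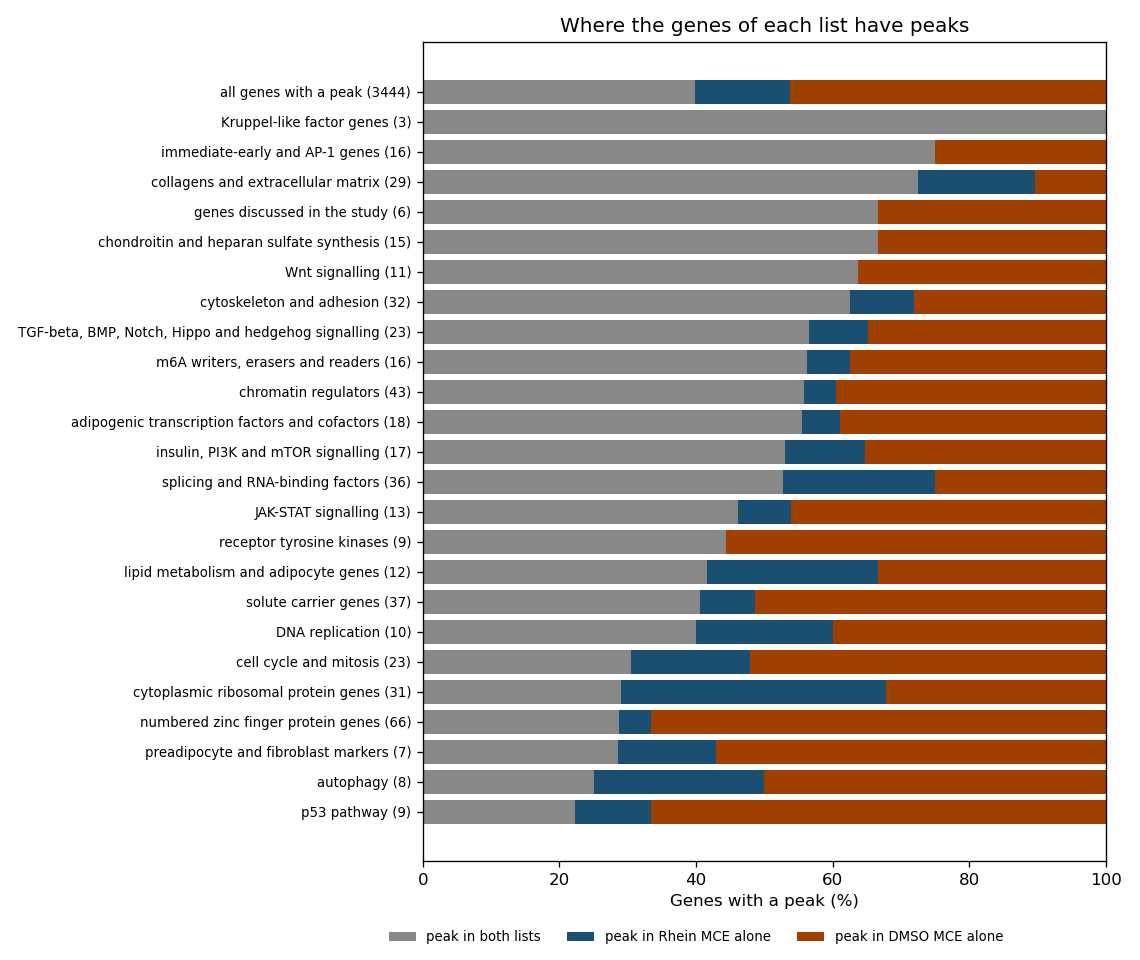
Genes of each list with a peak (number in brackets) split into those with peaks in both lists (grey), in Rhein MCE alone (blue) and in DMSO MCE alone (brown), as percent. Over all 3444 genes the split is 39.8%, 13.9% and 46.3%, the ribosomal protein genes reach 38.7% in rhein alone, and the numbered zinc finger genes 66.7% in DMSO alone.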

How the data were processed

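MeRIP-seq of 3T3-L1 cells was deposited as 1 peak list per condition. By the study's methods section, adapters were cut by Trim Galore, HISAT2 mapped the reads to mm10, Picard took out duplicates and SAMtools filtered on mapping quality. exomePeak2 then gave the peaks and ChIPseeker (version 1.26) their annotation. The libraries behind each call are not given in the sources used here. The deposited score, in a column headed as a log2 fold change, was taken to be an adjusted p-value on a minus log2 scale, since its lowest value in DMSO MCE corresponds to 0.0500. In Rhein MCE it corresponds to 0.0502, in DMSO Diff to 0.0520 and in DMSO Pre to 0.0549, so the reading is not certain.

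Peaks were placed on GENCODE M21 transcripts of GRCm38 (same strand, both ends in exons, coding transcripts first, then the longest), which succeeded for 97.0% of the peaks of both lists. Genes are those of the placed transcript, since the listed symbol differed in 28.4% of Rhein MCE and 27.1% of DMSO MCE peaks. Overlap used spans, which cross introns in peaks over several exons. Background shares for GGAC counted every window of the same length on the transcript outside peaks. Scripts ran in Python 3.11.15 and were tested on simulated data. The classes, the 25 gene lists and the comparisons were chosen with earlier results of these data known. Named were genes of these lists with a peak, the 10 highest peaks of each class in protein-coding genes, and the 5 genes of each class with most peaks or each direction with most unequal numbers. The genes with high-scoring 5′ UTR peaks, and the comparisons of exon length, base composition and opposite strands, were chosen after values were seen. Some genes of the lists are not reported here by name.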

Additional observations from a re-analysis of the deposited data

How the results depend on the processing

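Classes and shares kept within their intervals when overlap required 50% of the shorter span or an exonic base in common. They also did when the Rhein Diff list stood in for Rhein MCE. The 3067 identical spans of these lists fixed that outcome in advance, so it says nothing on stability. Another setting cut both lists to scores past an adjusted p-value of 1e-10 before matching. It left 31.1% of Rhein MCE and 47.9% of DMSO MCE peaks shared, and 24.8% of genes with peaks in both. Most peaks unshared after this cut had a partner of lower score in the full lists, where 40 rhein-only and 3 DMSO-only peaks passed it. Rhein-only peaks of the cut lists lay to 32.6% in the 5′ UTR, 18.6% in the 3′ UTR and 10.5% near the stop codon. Of their 10 internal-exon peaks 70% were in long exons. GGAC was in 56.1% of the class, and 28.8% overlapped DMSO Pre and 39.4% DMSO Diff. DMSO-only peaks of the cut lists gave 3.33%, 53.3% and 40% by position, and 50% of 8 in long exons. GGAC was in 63.8%, and 80% and 82% were in the lists of these stages. Between these newly formed classes the order turned for both UTRs, long exons and both stages. With the DMSO list reduced to the length of the rhein list by score, 47.4% of rhein and 47.2% of DMSO peaks were shared and 45.1% of genes were in both, so the lower shared percentage of DMSO peaks depended on list length. DMSO-only peaks then had 8.44% in the 5′ UTR, 50.3% with GGAC and overlaps of 18.7% with DMSO Pre and 20.7% with DMSO Diff. Rhein-only peaks had 42.1% with GGAC and overlaps of 17.9% and 22.0%, so the order by stage was lost for DMSO Pre and the intervals overlapped for both. The deposited annotation put 9.19% and 42.5% of rhein-only and 9.86% and 43.7% of DMSO-only peaks in the 5′ and 3′ UTR. With 100 bases around the midpoint of every placed peak, GGAC was in 55.6% of shared rhein and 49.0% of DMSO-only peaks.

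The 5′ UTR share among the 100 highest scores was 23.8% in Rhein MCE and 5.88% in DMSO MCE, and among the 200 highest 27.3% and 10.7%, alternatives chosen after seeing the data. No paired analysis was possible because each condition had 1 IP and 1 input and no result comes from a test. For the same reason no library could be left out. Other causes were not tested, and unknown depth limits what an absent peak shows.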
